A study of Mus musculus with 16 samples.

Results

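The genes described here are 43 that handle oxidants: the enzymes of glutathione synthesis, the glutathione peroxidases and transferases, the thioredoxin and peroxiredoxin system, the superoxide dismutases and catalase, the metallothioneins, and the Nrf2 axis that regulates many of them. They were chosen by name, as the non-control probes whose gene name on the array is one of the 43, and they were represented by 67 probes. A gene was kept for testing where at least 1 of its probes was well above background on at least 4 of 16 arrays, and 40 of the 43 passed, of 15399 genes that passed and 30027 distinct names on the array. The 3 that did not pass were Slc7a11, Gstt1 and Sod3.

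The tumours were B16-BL6 melanomas, an invasive variant of the B16 mouse melanoma line, taken from male C57BL/6J mice aged 8 weeks, and total RNA of each was hybridised to a one-colour Agilent whole-genome array. The 4 groups, of 4 arrays each, were untreated control tumours, tumours given 5-aminolevulinic acid (ALA) at 50 mg per kg, tumours given X-ray, and tumours irradiated after ALA. ALA is the precursor of heme and of protoporphyrin IX, a photosensitiser that tumour cells accumulate, and the study's title names its effect on radiotherapy as the question. Irradiation was fractionated and ALA was given locally before it; the radiation dose and the time from the last fraction to sampling were not given in the sources used here. All tumours came from 1 cell line grown in 1 mouse strain, and the labels do not say whether tumours of the same replicate number share an origin, so the p-values measure the spread between these tumour preparations.

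Glutathione and thioredoxin are parallel systems that reduce peroxides and oxidised protein thiols, both at the expense of NADPH. Glutathione is made from glutamate, cysteine and glycine, is used by peroxidases against hydroperoxides and by transferases for conjugation, and is regenerated by glutathione reductase; thioredoxins are regenerated by thioredoxin reductases and in turn reduce the peroxiredoxins. The transcription factor Nrf2, encoded by Nfe2l2 and held low by Keap1, binds antioxidant response elements and drives many of these genes, while the metallothioneins, small cysteine-rich proteins that hold zinc and copper, are driven by metal-responsive elements. Ionising radiation produces hydroxyl radicals and superoxide in tissue, and excited protoporphyrin IX produces singlet oxygen.

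Values are given below as log2 levels relative to the 75th percentile of the array's non-control spots, so that a difference of 1 is a 2-fold difference; levels of different probes are not compared with each other. The share of spots well above background was 44.3% to 53.6% over the 16 arrays, 0 spots were saturated, and log2 values of arrays within a group correlated at 0.9265 to 0.9838. The ALA plus X-ray group had the widest spread: the median standard deviation (SD) of a kept gene among the 43 was 0.28 there, against 0.163 in control, 0.159 in ALA and 0.206 in X-ray, and over all genes 0.334 against 0.194, 0.215 and 0.245. Each slide carried 1 array of each group, at a position fixed by group, so effects of position and of group cannot be told apart. All 7 melanocyte markers examined (Tyr, Tyrp1, Dct, Pmel, Mlana, Mitf and Sox10) were well above background on all 16 arrays, and their summed log2 level lay between 9.748 and 10.25. In bulk tumour RNA, fewer cells of a type and less RNA per cell cannot be told apart.

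Few of the 40 genes passed in the comparisons of the groups in pairs or in the interaction of ALA with X-ray. In X-ray against control, 2 of 40 passed an adjusted p of 0.05 (limma, Benjamini-Hochberg over all genes), both higher: the metallothioneins Mt1 and Mt2. Over all genes 3.37% passed in that comparison, 1.99% as higher. In ALA against control, 0 of 40 passed in limma, as did 0% of all genes; 5 of the 40 and 961 of all genes (6.24%) had an unadjusted p under 0.05. The combination of ALA and X-ray, set against control, gave 6 of 40: 4 higher (Prdx5, Txnip, Nfe2l2 and Gstt2) beside 9.77% of all genes, and 2 lower (Prdx1 and Txn2) beside 15.1%. Together these were 15% of the 40, against 24.9% of all genes. Set against ALA, the combination gave 7 of 40: 5 higher (Gpx3, Gpx7, Sod2, Prdx5 and Txnip) beside 10.7% of all genes, and 2 lower (Gclc and Nqo1) beside 13.4%. Together these were 17.5% of the 40, against 24.1% of all genes. Set against X-ray it gave 0 of 40 in limma, beside 2.07% of all genes (1.30% higher and 0.766% lower), and the interaction gave 0 of 40 beside 1.23%. With an unadjusted p under 0.05 there were 9 of the 40 in the former (23.2% of all genes) and 10 in the interaction (19.1%). The same count was 6 for X-ray (21.9%), 14 for the combination against control (39.9%) and 15 against ALA (39.6%). Arrays of the groups did not overlap for 3 of 40 genes between X-ray and control (18.3% of all genes), for 6 between the combination and control (20.6%) and for 7 between the combination and ALA (20.7%). The 2 comparisons of the combination with control and with ALA share the same 4 ALA plus X-ray arrays. With arrays scaled by their median, 0 of 40 passed in X-ray against control, beside 0.182% of all genes. For the combination, 0 passed against control (13.9% of all genes) and 4 against ALA (12.3%). Without ALA plus X-ray replicate 1, 10 and 13 of 40 passed in the comparisons of the combination with control and with ALA, 6 in that with X-ray and 3 in the interaction, while the calls among all 15399 genes were 5953, 5817, 3135 and 1065 (38.7%, 37.8%, 20.4% and 6.92%).

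The median log2 difference of the 40 genes was set beside that of all genes. It was 0.095 after X-ray (all genes, -0.024) and 0.049 with ALA (-0.0026), both against control. For the combination it was 0.11 against control (-0.079), -0.058 against X-ray alone (-0.085) and -0.019 against ALA alone (-0.13). The number of the 40 with a difference above 0 was 27 after X-ray (47.3% of all genes), 23 with ALA (49.6%) and 22 with the combination (43.5%), against control. It was 14 for the combination against X-ray (40.4%), 18 against ALA (38.9%) and 13 in the interaction (40.9%). In all, 13 of the 40 genes passed in at least 1 comparison and 27 in none. This count was not made over all genes, so it has no background share beside it.

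**Figure D1:**
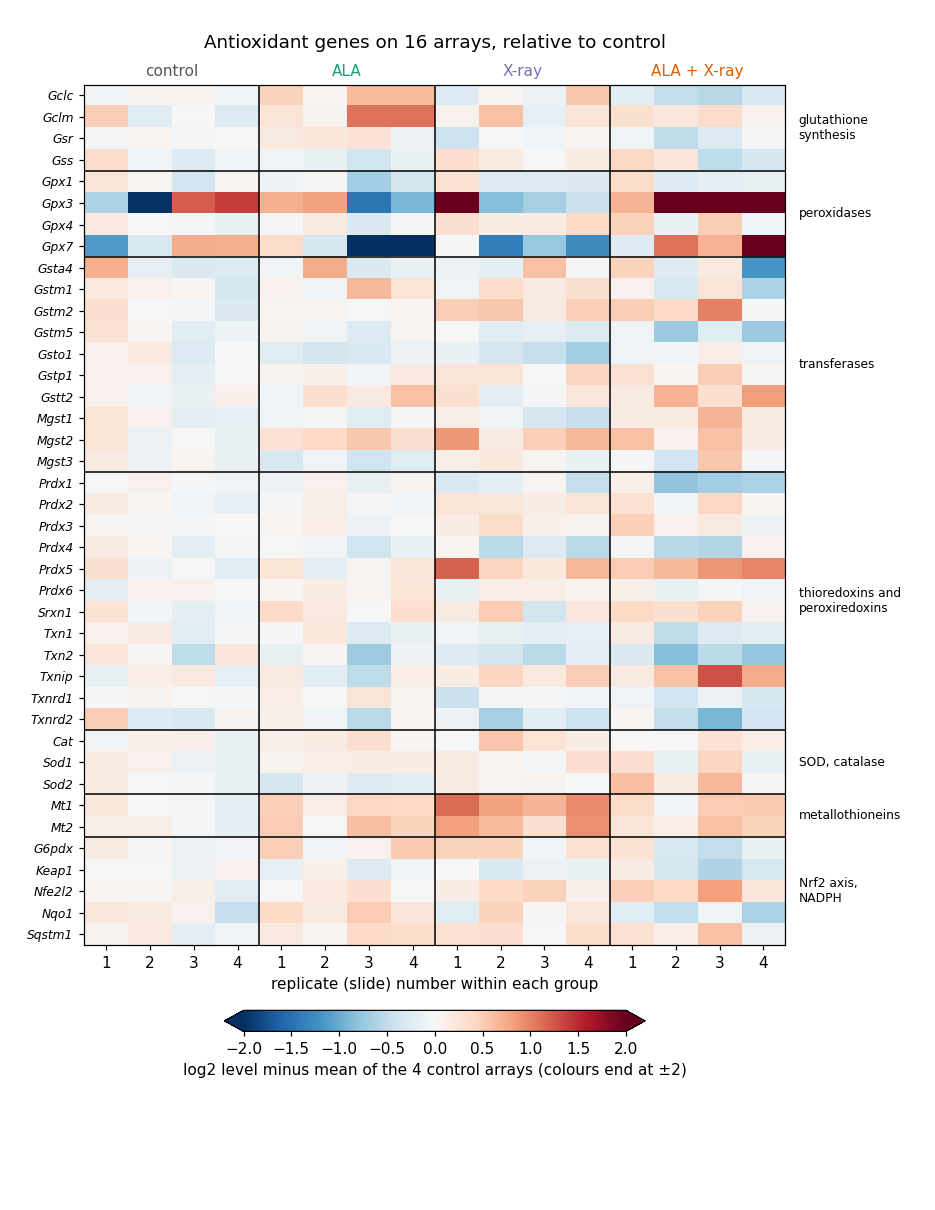
Heat map of the 40 kept genes (rows, by functional group) on the 16 arrays (columns, by treatment and replicate); colour is the log2 level minus the mean of the 4 control arrays, and colours end at 2 in both directions. Mt1 and Mt2 are above the control mean on all 4 X-ray arrays, and the most variable rows are Gpx3 and Gpx7, which also vary among the control arrays. In both rows the lowest control array was not well above background.

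The metallothioneins were the only 2 of the 40 that passed after X-ray alone. Mt1 lay at 5.59, 5.38, 5.35 and 5.19 on the 4 control arrays and at 6.50, 6.17, 6.05 and 6.32 on the X-ray arrays, in order of replicate. It lay at 5.85, 5.51, 5.79 and 5.77 with ALA and at 5.74, 5.30, 5.88 and 5.90 with ALA plus X-ray. The 4 X-ray values of Mt1 were above every value of the other groups, and the ALA and combination values overlapped each other. The difference between X-ray and control was 0.89 (standard error 0.15, 1.85-fold, limma adjusted p = 0.0167), and within the 4 slides it was 0.91, 0.80, 0.71 and 1.13. Mt2 lay at 7.18, 7.20, 7.05 and 6.91 in control and at 7.91, 7.71, 7.40 and 8.00 after X-ray. With ALA it lay at 7.60, 7.08, 7.68 and 7.53, and with the combination at 7.34, 7.22, 7.67 and 7.55. Every X-ray value of Mt2 was above every control value, and so was every combination value, while X-ray overlapped both the combination and ALA. Mt2 differed between X-ray and control by 0.67 (standard error 0.16, 1.59-fold, limma adjusted p = 0.0392), and by 0.73, 0.51, 0.35 and 1.08 within slides.

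No other comparison of the metallothioneins passed. ALA plus X-ray differed from X-ray by -0.56 for Mt1 (limma adjusted p = 0.0621, 95% interval -0.88 to -0.24) and by -0.31 for Mt2 (adjusted p = 0.265), and from control by 0.33 and 0.36 (adjusted p = 0.116 and 0.114); none of these passed. ALA alone differed from control by 0.36 and 0.39 (limma adjusted p = 0.796 for both). The interaction, which is the X-ray difference with ALA minus that without it, was -0.91 for Mt1, with the smallest p of the 40 (limma adjusted p = 0.0507), and -0.70 for Mt2 (adjusted p = 0.133). The Mt1 interaction passed under 9 of 26 alternatives, among them leaving out ALA plus X-ray replicate 1 (-0.92, adjusted p = 0.0291). It did not pass under the rest (limma adjusted p up to 0.214), among them the slide as a block (0.06). The Mt1 call after X-ray was lost on leaving out control replicate 2 or 4 or X-ray replicate 1, 2 or 4 (adjusted p 0.0525 to 0.0671), and the Mt2 call on leaving out any of these arrays or control replicate 1 or 3 (0.074 to 0.116). The slide as a block ended the Mt2 call (adjusted p = 0.0537) and kept that of Mt1 (0.031). Median scaling and testing without the background filter ended the call of Mt1 (0.0654 to 0.09); these, quantile scaling and the authors' table ended that of Mt2 (up to 0.172). After X-ray no macrophage marker of 10 and no erythroid marker of 4 passed. All 10 macrophage markers were below 0 there and all 4 erythroid markers above it. The summed macrophage level was 4.24 to 6.695 against 5.943 to 6.792 in control, and the erythroid level 4.708 to 9.677 against 5.91 to 7.433. Between the combination and X-ray 6 of the 10 macrophage markers passed as higher, and in the interaction 9. The part of these markers in the metallothionein results was not tested. Of 6 endothelial markers 1 passed as lower and all 6 were below 0, with a summed level of 2.594 to 3.00 after X-ray and 3.128 to 3.381 in control; their part was not tested either.

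The promoters of both genes were searched because metallothioneins are the textbook targets of metal response elements. The 250 bases before the RefSeq start (GRCm38.p6) are printed 5′ to 3′ on the gene's strand, with matches to the element's core on either strand in capitals; the core was searched as TGCACNC or TGCGCNC. The Mt1 promoter lies at chr8:94178839-94179088 on the plus strand and the Mt2 promoter at chr8:94172368-94172617 on the plus strand.
Mt1: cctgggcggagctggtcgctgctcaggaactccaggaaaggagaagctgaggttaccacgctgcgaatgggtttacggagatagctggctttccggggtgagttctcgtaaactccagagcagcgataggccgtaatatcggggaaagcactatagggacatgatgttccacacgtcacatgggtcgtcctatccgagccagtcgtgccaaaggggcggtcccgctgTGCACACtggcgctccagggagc
Mt2: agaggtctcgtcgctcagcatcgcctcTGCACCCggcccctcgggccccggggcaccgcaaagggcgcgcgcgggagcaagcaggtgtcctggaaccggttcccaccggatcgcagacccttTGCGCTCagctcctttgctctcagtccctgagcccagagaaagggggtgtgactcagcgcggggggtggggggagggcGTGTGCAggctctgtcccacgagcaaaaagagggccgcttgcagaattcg
Mt1 held 1 match, beginning 23 bases before the start, and Mt2 held 3, at 223, 128 and 50 bases before it. The core was found in 21.4% of 32851 mouse promoters of this length, in 23.8% of the 27025 genes they belong to, and in 12 of the 37 genes of the set that had a promoter in the RefSeq table, Txnip and Gpx7 among them. A match describes these letters and not a bound site. Bases after the RefSeq start, and those further upstream, were not searched, so any element lying there is missing from these counts. Gclc, Gsr, Gsta4, Gstt2, Prdx6 and Sod3 were not among the promoters matched. The array probes for the 2 genes, in the array annotation's build (mm9), lie at chr8:96704011-96704070 (Mt1) and chr8:96697371-96697430 (Mt2).

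Of the 4 kept genes of glutathione synthesis 1 passed, Gclc, which was lower with the combination than with ALA. Gclc encodes the catalytic subunit of glutamate-cysteine ligase, the rate-limiting enzyme of glutathione synthesis, and its probe lies at chr9:77641296-77641355 (mm9). Gclc lay at 0.49, 0.62, 0.62 and 0.46 in control, 1.00, 0.59, 1.18 and 1.18 with ALA and 0.29, 0.58, 0.44 and 1.09 with X-ray. With ALA plus X-ray it lay at 0.34, 0.058, -0.0077 and 0.25. All 4 combination values were below all 4 ALA values and below all 4 control values, while ALA and X-ray overlapped control. The combination differed from ALA by -0.83 (log2; standard error 0.17, 95% interval -1.20 to -0.46, limma adjusted p = 0.00642), and within the 4 slides the difference was -0.66, -0.53, -1.19 and -0.93. This was the smallest adjusted p of any of the 40 in any comparison, and no alternative or array left out ended the call (adjusted p 0.00296 to 0.0249). Against control Gclc differed by 0.44 with ALA (adjusted p = 0.778), 0.051 with X-ray (0.895) and -0.39 with the combination (0.109), and the interaction was -0.88 (0.0822), none of which passed in limma.

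Gclm, the regulatory subunit of the same ligase, did not pass in any comparison. It lay at -1.85, -2.58, -2.34 and -2.62 in control and at -2.07, -2.28, -1.26 and -1.26 with ALA, where replicates 3 and 4 were the highest of the 16 arrays and the other 2 lay among the control values. It lay at -2.26, -1.77, -2.51 and -2.09 with X-ray and -2.02, -2.14, -1.99 and -2.27 with both. The difference between ALA and control, 0.63 (95% interval 0.11 to 1.16), had the smallest adjusted p of the 40 in that comparison (limma, 0.768). The second Gclm probe gave 0.86 there, and 0.60 between the combination and control where the first gave 0.24. Between the combination and ALA Gclm differed by -0.39 (adjusted p = 0.253); its second probe differed by -0.26. Gss, which adds glycine in the last step, and Gsr, which regenerates reduced glutathione, did not pass; between the combination and ALA they differed by 0.13 and -0.37 (adjusted p = 0.629 and 0.0604). The other 2 probes of Gsr gave -0.61 and -0.38 there, and with the mean of its probes Gsr passed (-0.45, adjusted p = 0.0374). Slc7a11, the cystine importer that feeds the pathway, was well above background on 3 of 16 arrays by its best of 4 probes, 2 of them ALA and 1 X-ray, so no difference is given for it.

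The glutathione transferases, which conjugate glutathione to electrophiles, gave 1 call among the 10 kept genes over all 6 comparisons. Gstt2, of the theta class, lay at -2.43, -2.58, -2.65 and -2.42 in control and -2.35, -1.83, -2.18 and -1.69 with the combination, whose values were all above those of control. It lay at -2.60, -2.18, -2.34 and -1.94 with ALA and -2.21, -2.71, -2.56 and -2.30 with X-ray, both overlapping control. The combination was higher than control by 0.51 (standard error 0.17, limma adjusted p = 0.0459; within slides 0.085, 0.75, 0.47 and 0.73). That call was lost under 7 of the other settings (adjusted p 0.0598 to 0.803, and a difference of only 0.053 with normexp background) and on leaving out any control array or combination replicate 2, 3 or 4 (0.0595 to 0.128).

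Under the main settings none of the other 9 kept transferases passed in any comparison. Between the combination and control they ranged from -0.44 (Gstm5) to 0.46 (Gstm2), with adjusted p from 0.0603 to 0.935, and between the combination and ALA the 10 ranged from -0.38 (Gstm5) to 0.42 (Gstm2). Some passed under alternative settings. Gstm5 passed as lower than control in 8 of 19, among them the slide as a block (adjusted p = 0.0365). Gstm2 passed as higher than control in 5 of 19 (0.013 to 0.0389). Gstm1 passed as lower than ALA with the mean of its probes (0.0265). Mgst2, a membrane-bound transferase, was higher on all 4 ALA arrays (0.54, 0.65, 0.80 and 0.58) than on all control arrays (0.53, 0.14, 0.24 and 0.10); the difference of 0.39 did not pass (limma adjusted p = 0.796), and 5.7% of all genes had arrays that did not overlap in that comparison. Mgst2 was the only gene of the 40 with this pattern there. After X-ray it lay at 1.13, 0.41, 0.73 and 0.92, a difference from control of 0.54 (adjusted p = 0.0821). Gsto1 and Mgst1 were higher on all 4 combination arrays than on all 4 X-ray arrays, by 0.38 and 0.47 (adjusted p = 0.113 and 0.113), and Mt1 was lower; these were the 3 of 40 with no overlap there, where 6.4% of all genes had none. Gstm1 and Mgst3 had probes that disagreed: the second Gstm1 probe gave -0.91 between the combination and ALA where the first gave -0.38, and the second Mgst3 probe gave 0.44 between the combination and control where the first gave 0.027. The mu-class genes are close in sequence, so their probes may share signal and are uncertain. Gstt1 was above background on 0 arrays.

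Among the glutathione peroxidases the 2 called genes were Gpx3 and Gpx7, the latter an enzyme of the endoplasmic reticulum. Gpx3, the secreted plasma peroxidase, lay at -2.95, -4.29, -1.11 and -0.92 in control and -1.62, -1.51, -3.76 and -3.23 with ALA. It lay at -0.058, -3.16, -2.99 and -2.76 with X-ray and at -1.63, 0.064, 0.20 and 2.00 with the combination. The combination array of replicate 1 lay among the ALA values and the other 3 lay above all of them, and the control arrays alone spanned more than 3 log2 units. The lowest of these, control replicate 2, was not well above background for Gpx3, so that span rests in part on it. The combination exceeded ALA by 2.69 (standard error 0.93, 95% interval 0.70 to 4.68, limma adjusted p = 0.049), with differences of -0.019, 1.57, 3.97 and 5.23 within slides 1 to 4. Gpx7 lay at -3.51, -2.70, -1.64 and -1.64 in control, -2.0, -2.70, -4.72 and -5.26 with ALA and -2.41, -3.75, -3.13 and -3.64 with X-ray, and was well above background on 3, 2 and 2 of those arrays. With the combination it lay at -2.64, -1.28, -1.68 and 0.53, well above background on all 4. It too had a combination array (replicate 1) among the ALA values. Its difference was 2.40 (standard error 0.76, limma adjusted p = 0.0339), a fitted value that rests in part on ALA replicates 3 and 4, which were not well above background.

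Both peroxidase calls depended on single arrays and on the processing. The block for slide ended them (adjusted p = 0.0661 for Gpx3 and 0.0554 for Gpx7). So did testing without the background filter and a fit of only the arrays compared. The percentile over spots well above background and trended robust moderation also ended that of Gpx3. In all, Gpx3 was lost under 5 processing settings (adjusted p 0.0503 to 0.0824) and Gpx7 under 4 (0.0544 to 0.0959). Gpx3 was lost on leaving out any ALA array or combination replicate 2, 3 or 4 (adjusted p 0.0524 to 0.135), and Gpx7 on leaving out ALA replicate 3 or 4 or combination replicate 2, 3 or 4 (0.059 to 0.104); without combination replicate 1 they were 3.29 and 2.86 (adjusted p = 0.0162 and 0.0123). With normexp background the differences were 1.71 and 0.90, and the second did not pass (0.0544). The summed level of 7 fibroblast markers (Col1a1, Col1a2, Col3a1, Dcn, Lum, Postn and Pdgfra) was 6.628, 5.473, 3.994 and 4.056 on the ALA arrays and 5.897, 7.577, 7.279 and 8.717 on the combination arrays, and 6 of the 7 passed as higher in that comparison. That of 7 skeletal muscle markers was -0.9934, 1.307, -1.828 and -0.2188 with ALA and -1.324, 5.065, 8.398 and 5.258 with both, with 0 of 7 passing. Between the combination and ALA 10 of 10 macrophage, 2 of 4 T and NK cell, 1 of 5 adipocyte and 1 of 7 melanocyte markers also passed as higher. There, 3 of 4 erythroid markers passed as lower. The summed adipocyte level was 3.552 to 6.222 with ALA and 3.583 to 5.689 with both. The part of all these markers in the results for Gpx3 and Gpx7 was not tested. Gpx1, the abundant cytosolic enzyme, and Gpx4, which reduces lipid hydroperoxides and restrains ferroptosis, differed between the combination and ALA by 0.22 and 0.21 (adjusted p = 0.429 and 0.351) and from control by -0.056 and 0.18; neither passed in any comparison.

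**Figure D2:**
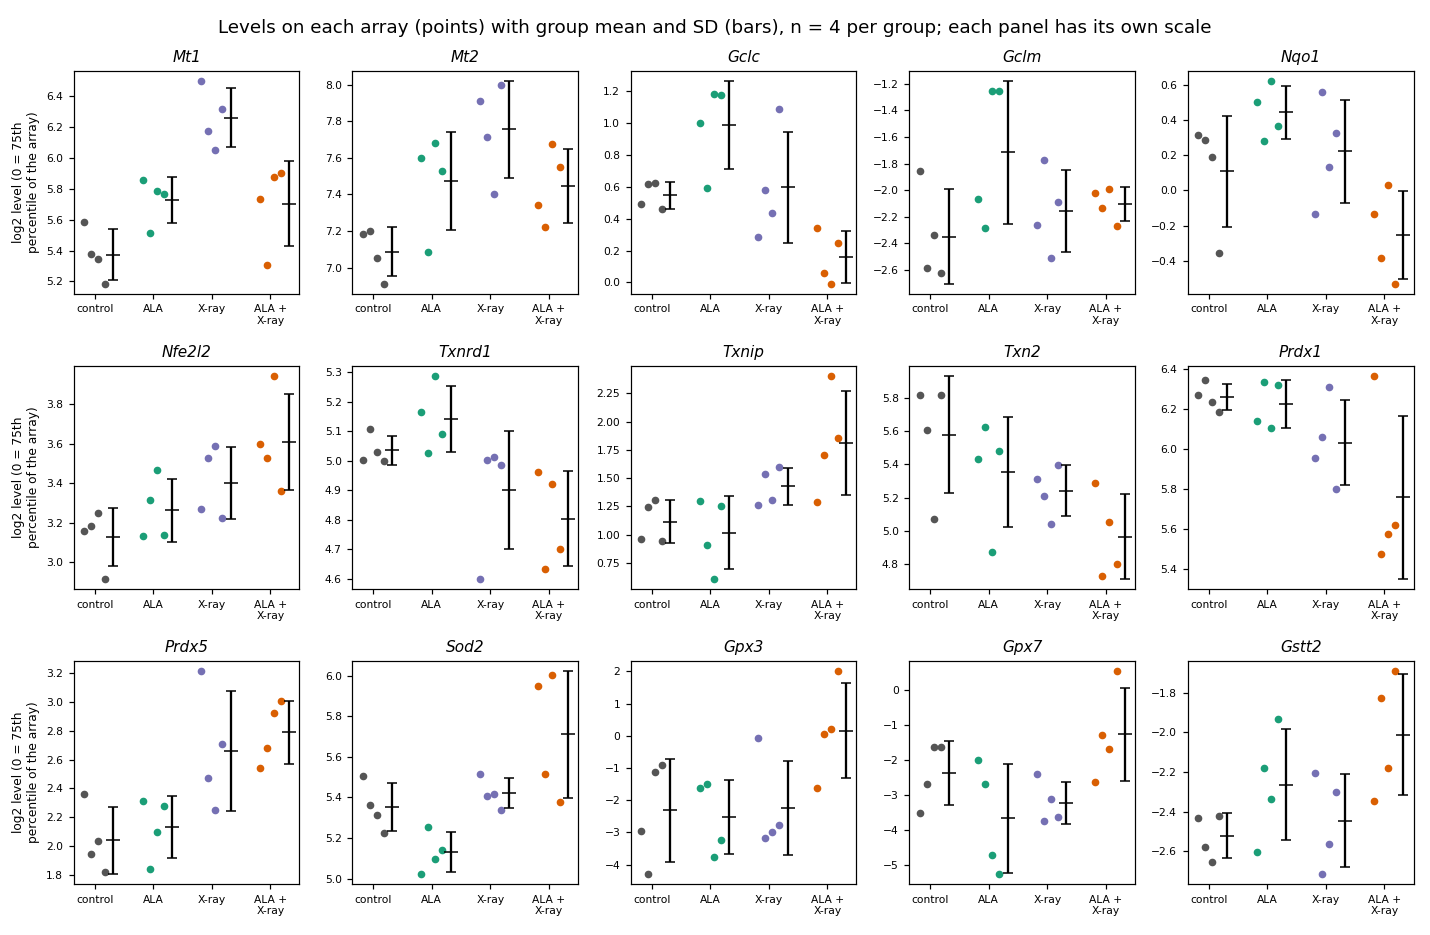
Log2 level on each array (points, replicates 1 to 4 from left to right) with the group mean and SD (bars), n = 4 per group, for the 13 called genes and for Gclm and Txnrd1; each panel has its own axis. Mt1 is highest on the 4 X-ray arrays, and Gclc on the 4 combination arrays is below all ALA and control arrays. Gpx3 spans from -4.29 to -0.92 among the control arrays alone, the lowest of which was not well above background.

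The thioredoxin and peroxiredoxin group held 4 of the 6 calls of the combination against control, 2 higher and 2 lower of 12 genes (33.3%, beside 24.9% of all genes). Prdx5, a peroxiredoxin of mitochondria, peroxisomes and cytosol, rose. It lay at 2.36, 1.94, 2.04 and 1.82 in control, 2.31, 1.84, 2.10 and 2.28 with ALA and 3.22, 2.47, 2.25 and 2.71 with X-ray. With the combination it lay at 2.54, 2.68, 2.93 and 3.01, above every control and every ALA value. The combination exceeded control by 0.75 (1.68-fold, standard error 0.20, limma adjusted p = 0.0164; within slides 0.18, 0.74, 0.89 and 1.20) and ALA by 0.66 (adjusted p = 0.0282; within slides 0.23, 0.84, 0.83 and 0.73). X-ray alone differed from control by 0.62 (95% interval 0.20 to 1.04), which did not pass (adjusted p = 0.0899), and the combination differed from X-ray by 0.13 (adjusted p = 0.719). No single array ended the call against control, although median scaling did (0.056). ALA replicate 2 or 3, or combination replicate 3 or 4, each ended the one against ALA when left out (0.0571 to 0.0747). Median scaling and testing without the background filter also ended the Prdx5 call against ALA (0.0535 to 0.062). Between the combination and control 3 of 10 macrophage markers passed as higher, with a summed level of 7.204 to 8.12 against 5.943 to 6.792. Of 4 T and NK cell markers 2 passed as higher (summed level -1.073 to 1.847 against -3.119 to -1.304), and of 7 melanocyte markers 1 passed as higher and 1 as lower. The part of these in the results of that comparison was not tested.

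Txnip, the protein that binds and inhibits thioredoxin and limits glucose uptake, also rose. It lay at 0.96, 1.24, 1.31 and 0.94 in control, 1.30, 0.91, 0.61 and 1.25 with ALA and 1.26, 1.54, 1.31 and 1.60 with X-ray. Its combination values were 1.29, 1.70, 2.40 and 1.86; replicate 1 was within the control and ALA ranges and the other 3 were above both. The combination exceeded control by 0.70 (standard error 0.21, limma adjusted p = 0.0292; within slides 0.33, 0.46, 1.10 and 0.92) and ALA by 0.80 (adjusted p = 0.0176; within slides -0.0081, 0.80, 1.80 and 0.61). Its second probe, well above background on 2 control and 3 ALA arrays, gave fitted differences of 1.06 and 0.76. Leaving out control replicate 1, 2 or 4, or combination replicate 2, 3 or 4, ended the call against control (adjusted p 0.0526 to 0.0847), and no single array ended that against ALA, although fitting only the arrays compared did (0.0781).

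Prdx1, the abundant cytosolic peroxiredoxin, and Txn2, the mitochondrial thioredoxin, fell. Prdx1 lay at 6.27, 6.34, 6.23 and 6.19 in control, 6.14, 6.34, 6.10 and 6.32 with ALA, 5.95, 6.06, 6.31 and 5.80 with X-ray and 6.37, 5.48, 5.58 and 5.62 with the combination. Combination replicate 1 was the highest of the 16 arrays and the other 3 were the lowest of all. The difference from control was -0.50 (standard error 0.17, limma adjusted p = 0.0472; within slides 0.094, -0.87, -0.66 and -0.57), it was -0.70 without combination replicate 1 (adjusted p = 0.00103), and the block for slide ended the call (0.0614). Leaving out any control array or combination replicate 2, 3 or 4 also ended it (0.0728 to 0.13). Txn2 lay at 5.82, 5.61, 5.07 and 5.81 in control and 5.28, 4.73, 5.05 and 4.80 with the combination, which overlapped through control replicate 3. It lay at 5.43, 5.63, 4.87 and 5.48 with ALA and 5.31, 5.21, 5.04 and 5.40 with X-ray. The difference was -0.61 (standard error 0.20, limma adjusted p = 0.037; within slides -0.53, -0.88, -0.019 and -1.01), but its second probe gave -0.082, the mean of both probes did not pass (-0.35), and leaving out control replicate 1, 2 or 4 or combination replicate 2, 3 or 4 ended the call (0.0642 to 0.103).

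Thioredoxin reductase and sulfiredoxin, both well-known Nrf2 targets, did not pass. Txnrd1, the cytosolic reductase, lay at 5.00, 5.11, 5.03 and 5.00 in control, 5.17, 5.03, 5.29 and 5.09 with ALA, 4.60, 5.00, 5.01 and 4.99 with X-ray and 4.96, 4.63, 4.92 and 4.70 with the combination. All combination values were below all ALA values and below all control values, and the differences were -0.34 (limma adjusted p = 0.0508) and -0.23 (0.161). Without combination replicate 1 the first passed (-0.39, adjusted p = 0.0234). Srxn1, which repairs overoxidised peroxiredoxins, lay at 4.22, 3.87, 3.74 and 3.86 in control and 4.33, 4.24, 4.39 and 4.01 with the combination, with overlap. It lay at 4.30, 4.12, 3.92 and 4.25 with ALA and 4.11, 4.43, 3.56 and 4.15 with X-ray. The combination differed from control by 0.32 (limma adjusted p = 0.184), while its other 2 probes gave 0.58 and 0.79 and the mean of its 3 probes passed (0.57, adjusted p = 0.0396). The other 6 genes of the group (Txn1, Txnrd2, Prdx2, Prdx3, Prdx4 and Prdx6) ranged from -0.43 (Txnrd2) to 0.18 (Prdx2) against control with the combination, and from -0.36 (Txnrd2) to 0.22 (Prdx2) with X-ray alone; none passed in any comparison. A second Txnrd2 probe gave -1.06 between the combination and ALA, where the first gave -0.32. The other 2 probes of Prdx2 gave -0.064 and -0.059 against control with the combination.

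Sod2, the manganese superoxide dismutase of mitochondria, was the 1 called gene among the superoxide dismutases and catalase. It lay at 5.51, 5.36, 5.31 and 5.22 in control, 5.02, 5.26, 5.10 and 5.14 with ALA, 5.52, 5.41, 5.42 and 5.34 with X-ray and 5.95, 5.51, 6.00 and 5.38 with the combination. All 4 combination values were above all 4 ALA values, and combination and control overlapped. The combination exceeded ALA by 0.58 (1.5-fold, standard error 0.14, limma adjusted p = 0.0107; within slides 0.92, 0.26, 0.90 and 0.23) and control by 0.36 (adjusted p = 0.0667). No array left out ended the call, but median scaling and a fit of only the arrays compared did (0.0651 to 0.0675). In the same comparison 10 of 10 macrophage markers (Adgre1, Csf1r, Cd68, C1qa, C1qb, C1qc, Ms4a7, Itgam, Lyz2 and Mrc1) passed as higher, with a summed level of 3.62 to 5.278 on the ALA arrays and 7.204 to 8.12 on the combination arrays, and 3 of 4 erythroid markers passed as lower, 8.13 to 9.447 against 4.549 to 5.775. Of the 4 T and NK cell markers 2 passed as higher (-3.43 to -1.552 with ALA), and of the 7 melanocyte markers 1. The part of these in the results for Sod2, Prdx5, Txnip, Gclc and Nqo1 was not tested. Nor was that of the fibroblast, skeletal muscle and adipocyte markers given above for the same comparison. Sod1, the cytosolic enzyme, and Cat, which breaks down hydrogen peroxide, differed by -0.00086 and -0.053 (adjusted p = 0.997 and 0.78) and passed in no comparison; a dim second Sod1 probe, well above background on 10 arrays, gave -0.90 between X-ray and control where the first gave 0.13. Sod3, the extracellular enzyme, was above background on 2 arrays, both of the combination.

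On the Nrf2 axis, Nfe2l2 rose with the combination against control and Nqo1 fell with the combination against ALA. Nfe2l2 lay at 3.16, 3.18, 3.25 and 2.92 in control and 3.60, 3.53, 3.94 and 3.36 with the combination, whose values were all above control. It lay at 3.13, 3.32, 3.46 and 3.14 with ALA and 3.27, 3.53, 3.59 and 3.22 with X-ray. The combination exceeded control by 0.48 (1.4-fold, standard error 0.14, limma adjusted p = 0.026; within slides 0.44, 0.34, 0.69 and 0.45), and its second probe gave 0.32. With the slide as a block it also passed against ALA (0.35, adjusted p = 0.025, from 0.086 without the block). Leaving out control replicate 1, 2 or 4 or combination replicate 3 ended the call against control (0.0535 to 0.075). Median scaling, no background filter and a fit of only the arrays compared each ended the calls of Nfe2l2, Prdx1, Txn2 and Txnip against control (0.061 to 0.195).

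Nqo1, the quinone reductase often read as a marker of Nrf2 activity, lay at 0.32, 0.29, 0.19 and -0.36 in control and 0.50, 0.28, 0.62 and 0.37 with ALA; its probe lies at chr8:109912440-109912499 (mm9). It lay at -0.13, 0.56, 0.14 and 0.33 with X-ray and at -0.13, -0.38, 0.03 and -0.53 with the combination, below every ALA value but overlapping control. The combination differed from ALA by -0.70 (log2; standard error 0.18, 95% interval -1.09 to -0.31, limma adjusted p = 0.0168; within slides -0.64, -0.67, -0.59 and -0.90), and no array left out ended the call, although median scaling did (0.0954). Against control it differed by 0.34 with ALA and -0.36 with the combination (adjusted p = 0.806 and 0.156). Keap1, Sqstm1 (p62, which sequesters Keap1) and G6pdx (the first enzyme of the pentose phosphate pathway, a source of NADPH) passed in no comparison; against control with the combination they differed by -0.28, 0.23 and -0.16 (adjusted p = 0.171, 0.283 and 0.548). With the slide as a block G6pdx passed as lower in the combination than in ALA (-0.42, adjusted p = 0.0402).

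The antioxidant response element core, searched as TGACNNNGC on both strands, was found in 9 of the 37 genes of the set that had a promoter, in 11.5% of all 27025 genes and in 10.2% of 32851 promoters. The promoters of Nfe2l2, Prdx1, Txnrd1 and Gclm are shown because they hold a match and belong to genes described above, of which Nfe2l2 rose, Prdx1 fell and the other 2 did not pass. They are at chr2:75704664-75704913 (Nfe2l2, minus strand), chr4:116685349-116685598 (Prdx1, plus strand), chr10:82858956-82859205 (Txnrd1, plus strand, 1 of its 3 promoters) and chr3:122245307-122245556 (Gclm, plus strand) in GRCm38.p6, from RefSeq, with the match in capitals.
Nfe2l2: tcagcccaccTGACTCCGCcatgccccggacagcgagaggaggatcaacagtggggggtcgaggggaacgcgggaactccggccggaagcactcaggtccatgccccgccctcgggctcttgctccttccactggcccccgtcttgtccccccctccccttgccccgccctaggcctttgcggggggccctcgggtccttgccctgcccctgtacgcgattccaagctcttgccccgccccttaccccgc
Prdx1: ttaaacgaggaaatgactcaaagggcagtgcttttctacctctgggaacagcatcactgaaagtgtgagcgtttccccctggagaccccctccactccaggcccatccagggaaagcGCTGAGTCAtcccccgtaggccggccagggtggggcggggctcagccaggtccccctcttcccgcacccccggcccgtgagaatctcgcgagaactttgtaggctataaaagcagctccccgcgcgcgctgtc
Txnrd1: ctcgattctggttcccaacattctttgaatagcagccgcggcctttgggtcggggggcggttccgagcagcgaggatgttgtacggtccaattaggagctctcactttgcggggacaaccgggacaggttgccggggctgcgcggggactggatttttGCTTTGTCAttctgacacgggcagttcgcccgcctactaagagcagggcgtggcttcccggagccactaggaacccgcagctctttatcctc
Gclm: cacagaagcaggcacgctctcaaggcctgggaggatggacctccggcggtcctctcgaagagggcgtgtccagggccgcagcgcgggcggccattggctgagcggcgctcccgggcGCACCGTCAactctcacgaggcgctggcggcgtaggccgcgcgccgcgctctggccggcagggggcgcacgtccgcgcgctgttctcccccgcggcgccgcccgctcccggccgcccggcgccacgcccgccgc
The match begins 240 bases before the start in Nfe2l2, 133 in Prdx1, 92 in Txnrd1 and 134 in Gclm, and in Gclm it overlaps a match to the metal element core. The other 5 genes with a match were G6pdx, Gstm5, Mgst1, Mt2 (79 bases before the start) and Sod1. Of the called genes with a promoter in the table, Mt1, Txnip, Prdx5, Nqo1, Sod2, Txn2, Gpx3 and Gpx7 had no match to this core in these 250 bases. Bases further upstream or after the start, and other spellings of the element, were not searched, so these genes may still hold one.

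**Figure D3:**
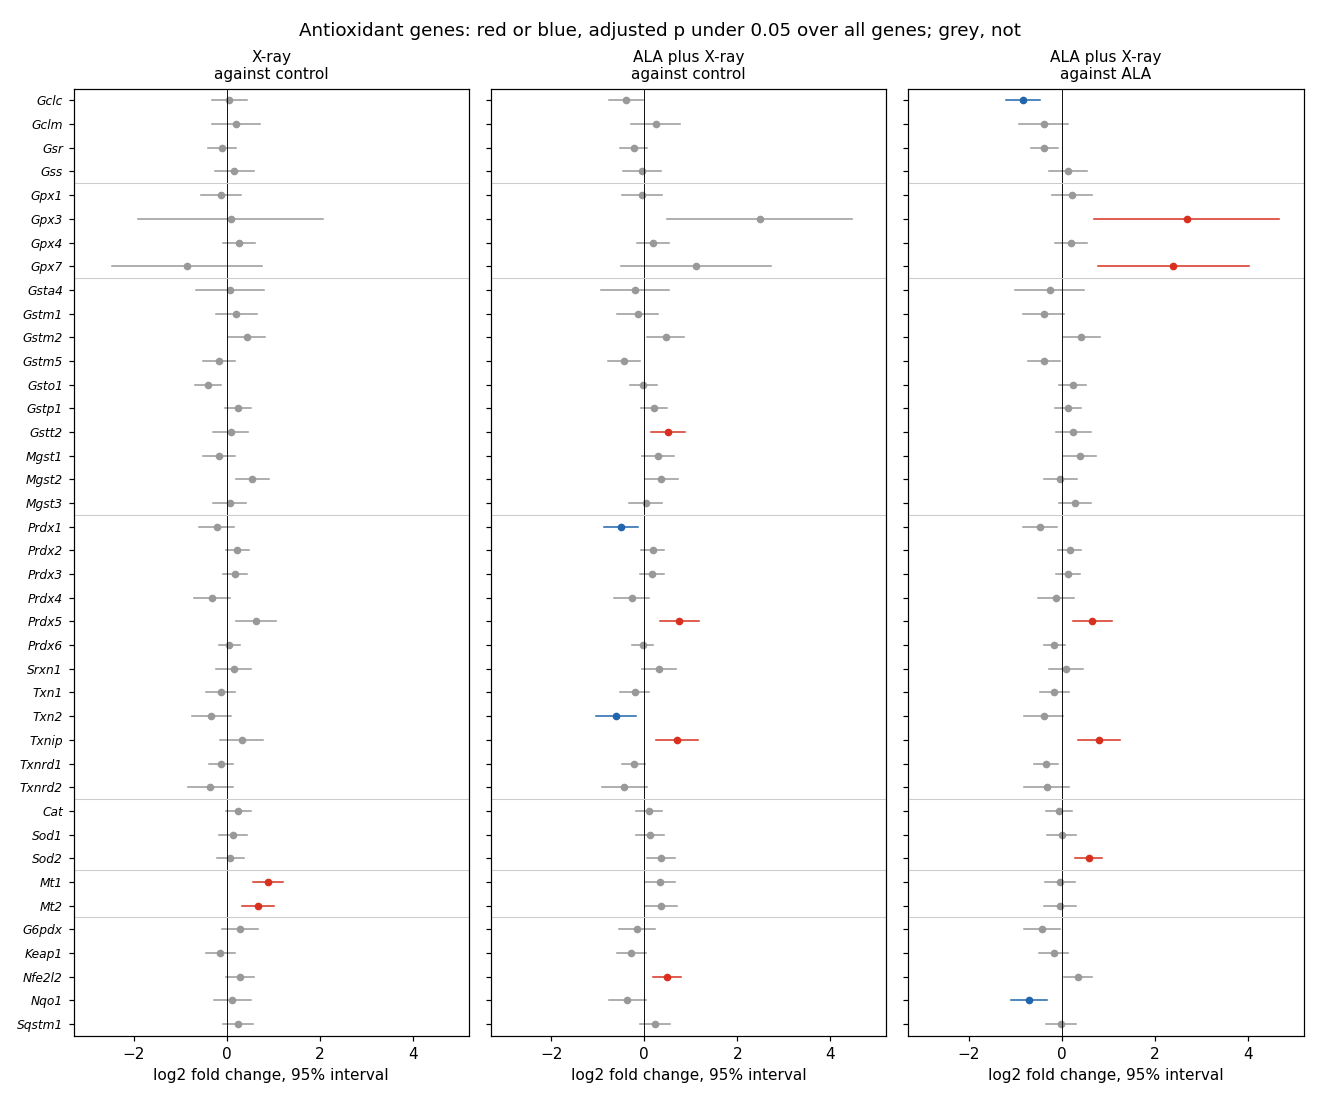
Log2 fold change (points) with 95% interval (lines) of the 40 genes, for X-ray and for the combination, each against control, and for the combination against ALA; red and blue mark genes with an adjusted p under 0.05 over all genes, higher and lower. The 2 red points in the first panel are Mt1 and Mt2, and the blue points of the third are Gclc and Nqo1.

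The functional groups hold few genes each. Against ALA the combination gave medians of 1.31 for the 4 peroxidases (2 called), -0.38 for the 4 glutathione synthesis genes kept (1 called), 0.18 for the 10 transferases (0 called) and -0.14 for the 12 thioredoxin and peroxiredoxin genes (2 called), beside -0.13 over all genes. Against control the same medians were 0.64 (0 called), -0.14 (0), 0.12 (1) and -0.12 (4), beside -0.079. After X-ray alone they were -0.029, 0.10, 0.067 and -0.045, with 0 called in each, and beside them the 2 metallothioneins had a median of 0.78. The differences between these groups of genes were not tested.

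**Figure D4:**
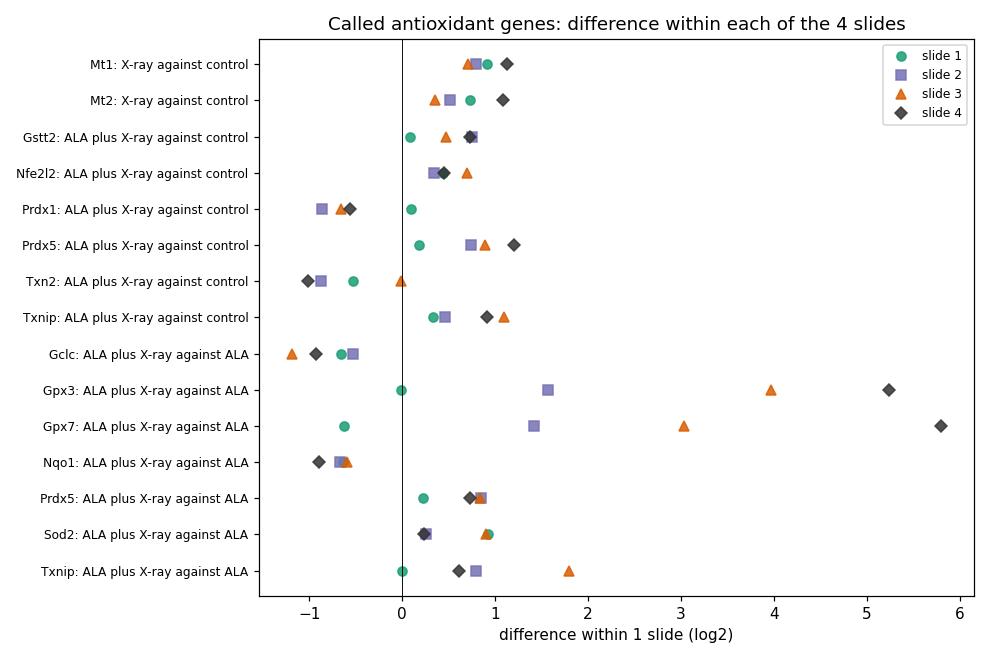
Difference within each of the 4 slides (log2, 1 marker per slide) for each called gene and comparison. Mt1, Mt2, Nfe2l2, Gclc, Nqo1, Prdx5, Sod2, Txn2 and Gstt2 keep 1 direction on all 4 slides, although Txn2 is near 0 on slide 3 and Gstt2 on slide 1. Gpx3, Gpx7 and Txnip (against ALA) are near or below 0 on slide 1, and Prdx1 is at 0.094 there. The ALA arrays of slides 3 and 4 were not well above background for Gpx7.

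Of 73 other genes of these pathways, 71 were kept. In X-ray against control 5 of 71 passed (7.04%, beside 3.37% of all genes), 3 higher and 2 lower; the 4 of smallest p were Aifm2 (0.69), which regenerates coenzyme Q at membranes, Gstm6 (1.52), Blvrb (0.88), a biliverdin reductase, and Idh1 (-0.58), the cytosolic NADPH-producing isocitrate dehydrogenase. In ALA against control 0 of 71 passed in limma and 3 had an unadjusted p under 0.05. The combination against control gave 27 of 71 that passed (38.0%, beside 24.9% of all genes), 12 higher and 15 lower, led by Aifm2 (1.13), Blvrb (1.21), Tigar (-0.89), which diverts glucose to NADPH production, and Glrx (1.04), a glutaredoxin. The combination against ALA gave 21 of 71 that passed (29.6%, beside 24.1% of all genes), 13 higher and 8 lower, led by Aifm2 (1.03), Glrx (1.17), Cth (-1.66), which makes cysteine by transsulfuration, and Gstk1 (2.34), a mitochondrial and peroxisomal transferase. Gstk1 was the 1 gene called between the combination and X-ray alone (2.20, adjusted p = 0.0377) and in the interaction (2.93, adjusted p = 0.0497; limma), 1.41% of the 71 in both, where 2.07% and 1.23% of all genes passed.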

How the data were processed

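Spot intensity was extracted by the authors with Agilent Feature Extraction. The file headers and the submitters' processing notes name different versions of it (9.5.3.1 in the notes). The deposited columns used were the processed signal and the background, saturation and outlier flags. The normexp alternative instead started from the mean signal and the median background signal. The deposited value table holds the authors' values as linear intensity with a column median of 31.881, correlating with the log2 scanner values at 0.9925 to 1, and served as an alternative. Here log2 of the processed signal minus the array's 75th percentile was taken, control and outlier spots were left out, and spots of a probe were averaged. The kept probe of highest mean stood for a gene. limma 3.58.1 in R 4.3.3 fitted 4 group means to 15399 genes, with 12 residual degrees of freedom, and adjusted p by Benjamini-Hochberg over all of them. The members and lists were chosen with earlier results of these data known. Named genes are all 43, those called and the main regulators in full. Replicate number equals slide. Deviations of same-numbered arrays correlated at -0.461 to 0.54 (24 pairs, median 0.0642, against -0.00623 for different numbers); not every pair exceeded 0.1, so pairing was not established, and a block was an alternative.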

Additional observations from a re-analysis of the deposited data

Results flagged for a closer look

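In 11 of 160 sets of 4 arrays (40 genes in 4 groups), 1 array stood apart from the other 3 by Dixon's ratio, the gap to its nearest neighbour over the whole range, past its 95% critical value; chance gives this in about 5% of sets. Among the peroxidases, X-ray replicate 1 was highest for Gpx1 (ratio 0.959, level 6.61 against 6.04 next) and for Gpx3 (0.871, level -0.058 against -2.76). Among the transferases, control replicate 1 was highest for Gsta4 (0.877), and Gstm2 was lowest on ALA replicate 3 (0.886) and X-ray replicate 3 (0.836). ALA plus X-ray replicate 3 was highest for Gsto1 (0.85) and for Mgst1 (0.99, level 4.23 against 3.72). In the thioredoxin group, Txnrd1 was lowest on X-ray replicate 1 (0.938, level 4.60 against 4.99) and Prdx1 was highest on ALA plus X-ray replicate 1 (0.837, level 6.37 against 5.62). Sod1 was lowest on ALA replicate 1 (0.832) and Sqstm1 on X-ray replicate 3 (0.838).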

How the results depend on the processing

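Alternative values were set beside the main value for the 15 called pairs of gene and comparison and for the medians of the 40. A pair counted as unchanged if it kept its direction and still passed. A median counted as unchanged if it moved by less than the SD of its values within the 4 slides. Of all these values 296 were unchanged, and 102, all of pairs, kept their direction and lost the threshold. No called pair reversed. The median of the 40 genes in ALA against control moved to -0.070 with median scaling. Of the 225 pairs not called, 41 passed under at least 1 alternative and 75 had alternatives of both signs. These counts were not made over all genes, so they have no background share beside them. In X-ray against control, 1 of 40 passed with quantile scaling (4.14% of all genes), 0 with median scaling (0.182%) and 1 in the authors' table (4.1%). There, 0 of 43 passed without a filter (0.01%), 1 of 40 with the replicate block (3.18%), and 0 to 3 on leaving out an array (0.00649% to 5.43%). For the combination against control, 15 passed with normexp background (27.2% of all genes), 0 with median scaling (13.9%) and 10 with the percentile over spots well above background (24.8%). There, 1 of 43 passed without a filter (9.23%), 1 of 40 with only the arrays compared (10.4%), and 1 to 10 on leaving out an array (12.7% to 38.7%). For the combination against X-ray, 2 passed with normexp (3.38% of all genes), 1 with trended robust moderation (3.08%) and 0 to 6 on leaving out an array (0.0195% to 20.4%). For the combination against ALA, 4 passed with median scaling (12.3% of all genes), 11 in the authors' table (27.1%) and 4 of 43 without a filter (8.62%). With only the arrays compared 3 of 40 passed (10.3%), and 4 to 13 on leaving out an array (14.1% to 37.8%). In the interaction, 1 passed with each of normexp (1.11% of all genes), quantile scaling (1.67%) and the percentile over spots well above background (0.864%). The authors' table (1.46%), the filter on all 16 arrays (1.44%) and trended robust moderation (1.54%) also gave 1 each. Leaving out an array gave 0 to 3 (0.00649% to 6.92%). ALA against control gave 0 throughout, beside at most 0.013% of all genes. The cause was not tested. Over all genes, X-ray against control gave 28 calls with median scaling and 3 without a filter (1 to 836 on leaving out an array). The combination against control gave 2135 and, with only the arrays compared, 1603 (1954 to 5953), and against ALA 1896 and 1589 (2165 to 5817). The combination against X-ray gave 520 with normexp, 11 without a filter and 1 with only the arrays compared (3 to 3135), and the interaction 40 without a filter and 8 with the block (1 to 1065). With the replicate block 6 and 7 of 40 passed for the combination against control and ALA, beside 26.9% and 26.6% of all genes. The median over all genes was -0.12 in ALA against control and -0.14 in the combination against control with median scaling. The 4 arrays a group limit the precision.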
